A study of Mus musculus with 5 samples.

Results

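The regions described here are the promoter peaks of long intergenic non-coding RNAs (lincRNAs) in an RNA polymerase II (Pol II) CUT&Tag experiment on splenic regulatory T (Treg) cells. A merged peak was taken as a member if it lay on chromosomes 1 to 19, was shorter than 5000 bp, had its midpoint within 1 kb of the start of a GENCODE vM21 gene of type lincRNA, and lay more than 3 kb from the start of any protein-coding transcript. This rule used positions alone and no measured value, and it found 338 members among 56615 merged peaks. The 338 peaks had 319 different lincRNAs as their nearest start, of which 300 had 1 peak and 19 had 2.

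CUT&Tag uses an antibody to direct a transposase to a protein on chromatin, so that the DNA fragments released and sequenced come from where that protein sits. Pol II was profiled in 2 control (Ctrl) libraries of genotype Foxp3CreSetd2flox/+ and 2 knockout (KO) libraries of genotype Foxp3CreSetd2flox/flox. The comparison asks how loss of Setd2 in Treg cells changes Pol II on chromatin. All 4 libraries came from C57BL/6 mice of 8 weeks, with females and males pooled. Both genotypes carried the Cre, which is driven by Foxp3 and fused to YFP, and both were injected with complexes of 1 µg IL-2 and 5 µg anti-IL-2 on 3 consecutive days and analysed 48 h after the last of them. The Ctrl mice also carried 1 floxed Setd2 allele, and all values describe Treg cells of mice given IL-2 complexes. Cells positive for CD3, CD4 and YFP were pooled and sorted from 2 mice of a genotype, and 80000 nuclei made 1 library. The mice were littermates, and the study calls each library a biological replicate. Whether the libraries of a genotype came from separate mice is not stated in the sources used here, so p-values measure the spread between these libraries, which may be technical. An IgG library pooled from both genotypes was not analysed here.

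lincRNAs are transcripts made by Pol II from loci that lie apart from protein-coding genes, and many are spliced and capped like messenger RNAs. Some are precursors from which microRNAs or small nucleolar RNAs (snoRNAs) are cut, some act on chromatin or on the genes beside them, and for many only the act of transcription is known. Pol II gathers at active start sites, where it initiates and often pauses, and Setd2 travels with elongating Pol II and trimethylates lysine 36 of histone H3 along the transcribed body. Start sites rich in CpG dinucleotides are typical of broadly active genes, and CpG-poor ones of tissue-restricted genes and of enhancers.

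The promoters of 5 members are shown to let the range of base composition be seen. Each is the window from 250 bases before to 50 bases after the annotated lincRNA start, on the strand of the lincRNA, from the GRCm38 reference genome, and capitals mark every CpG dinucleotide. 6720427I07Rik, which holds let-7 hairpins, has a window on the minus strand at chr13:48546451-48546750. Gm6410, the member with the highest level per kb, has a window on the plus strand at chr8:4678212-4678511. Gm36445, the member with the lowest p-value, has a window on the plus strand at chr13:65241503-65241802. Gm26551, inside the T cell factor gene Tcf7, has a window on the minus strand at chr11:52269465-52269764. Gm26778, inside Kctd12, has a window on the plus strand at chr14:102977970-102978269. The Gm26778 peak (chr14:102978423-102979053) lies downstream of this window and does not overlap it.
6720427I07Rik: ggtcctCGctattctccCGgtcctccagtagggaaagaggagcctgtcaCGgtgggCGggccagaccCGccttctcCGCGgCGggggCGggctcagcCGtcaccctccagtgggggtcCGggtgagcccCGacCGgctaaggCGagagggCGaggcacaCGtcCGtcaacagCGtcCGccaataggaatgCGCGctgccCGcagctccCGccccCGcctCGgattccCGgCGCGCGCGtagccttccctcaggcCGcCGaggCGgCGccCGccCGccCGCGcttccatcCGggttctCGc
Gm6410: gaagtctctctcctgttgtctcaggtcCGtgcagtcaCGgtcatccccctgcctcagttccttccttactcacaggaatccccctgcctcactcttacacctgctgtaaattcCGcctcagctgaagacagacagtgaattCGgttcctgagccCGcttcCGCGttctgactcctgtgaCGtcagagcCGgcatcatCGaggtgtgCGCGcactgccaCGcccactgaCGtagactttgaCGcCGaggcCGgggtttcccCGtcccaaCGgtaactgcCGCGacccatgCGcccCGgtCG
Gm36445: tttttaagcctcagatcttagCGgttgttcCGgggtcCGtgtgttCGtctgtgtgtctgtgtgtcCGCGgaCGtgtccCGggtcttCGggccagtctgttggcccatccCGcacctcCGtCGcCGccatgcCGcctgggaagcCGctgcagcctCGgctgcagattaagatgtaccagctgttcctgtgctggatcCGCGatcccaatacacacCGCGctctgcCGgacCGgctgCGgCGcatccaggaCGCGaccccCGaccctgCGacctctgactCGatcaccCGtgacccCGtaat
Gm26551: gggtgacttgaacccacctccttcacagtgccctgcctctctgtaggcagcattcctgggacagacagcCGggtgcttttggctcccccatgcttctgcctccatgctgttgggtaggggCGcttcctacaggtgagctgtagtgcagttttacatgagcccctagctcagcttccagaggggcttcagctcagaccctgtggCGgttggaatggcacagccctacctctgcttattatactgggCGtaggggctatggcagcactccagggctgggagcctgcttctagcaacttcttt
Gm26778: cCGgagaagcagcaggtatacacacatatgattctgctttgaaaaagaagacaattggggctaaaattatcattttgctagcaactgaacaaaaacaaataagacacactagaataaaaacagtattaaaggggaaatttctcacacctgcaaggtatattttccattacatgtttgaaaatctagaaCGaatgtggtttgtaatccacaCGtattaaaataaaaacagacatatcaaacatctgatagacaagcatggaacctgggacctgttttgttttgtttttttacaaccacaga

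The first 3 windows hold between 24 and 40 CpG dinucleotides in 300 bases, while Gm26551 holds 4 and Gm26778 holds 3. Gm26551 is not poor in G and C, with a GC content of 58.0% against 60.7% for Gm6410. Its observed over expected CpG ratio was nevertheless 0.159, against 0.909 for Gm6410. Gm26778 was low in both, with a GC content of 34.0% and a ratio of 0.346. Of 7 short motifs searched on both strands (spelled out with their frequencies further on), the GC box GGGCGG occurred 5 times in the window of 6720427I07Rik. The cyclic AMP response element TGACGTCA occurred once in the Gm6410 window, 74 bases before the start. The Runx motif TGTGGT occurred 2 times in the Gm26778 window. The Gm36445 and Gm26551 windows held none of the 7.

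Annotated microRNA hairpins lie in 7 lincRNAs with a member peak, and 8 of the mature RNAs annotated in these hairpins are shown. The hairpins were placed by position alone, and whether the mature RNAs are cut from these transcripts was not tested. The sequences are from RefSeq on GRCm38, 5′ to 3′, with the seed (bases 2 to 8) in capitals. All 10 hairpins in the 7 lincRNAs had mature entries. 6720427I07Rik carries the let-7a-1, let-7f-1 and let-7d hairpins, E130102H24Rik miR-101a, Gm2044 miR-202 and miR-7686, 2900076A07Rik miR-1839, Snhg20 miR-6516, and Gm37233 miR-5103.
miR-155-5p: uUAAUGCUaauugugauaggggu
let-7a-5p: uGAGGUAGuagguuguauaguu
let-7f-5p: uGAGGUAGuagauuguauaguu
let-7d-5p: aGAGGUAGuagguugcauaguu
miR-101a-3p: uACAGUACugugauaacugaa
miR-202-3p: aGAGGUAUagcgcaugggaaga
miR-1839-5p: aAGGUAGAuagaacaggucuug
miR-6516-5p: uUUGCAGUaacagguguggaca

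The 3 let-7 5p RNAs share the seed GAGGUAG, and no other mature RNA annotated in these lincRNAs has it. miR-202-3p has a seed of its own, GAGGUAU.

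The libraries held between 4489646 and 13351007 counts in all merged peaks, with KO 1 and Ctrl 1 deeper than Ctrl 2 and KO 2. The median raw count of a member was 133 and 64.5 for Ctrl 1 and Ctrl 2 and 160 and 51 for KO 1 and KO 2, and the lowest count of any member in any library was 3. Normalized counts below are the deposited counts divided by a size factor of each library (DESeq2). At the promoter of Foxp3, the factor that defines Treg cells, normalized counts ran from 433 to 620, and Il2ra, Ikzf2, Cd3e and Cd4 also had promoter peaks in every library, while no peak midpoint lay within 1 kb of a Ctla4 start. Of 14 markers of B, myeloid, CD8 T, NK and erythroid cells, 1 had a promoter peak, the B cell receptor gene Cd79a, with 34.5 and 17.9 in Ctrl against 23.2 and 46.0 in KO. Its part in any lincRNA result was not tested. The promoter peak of Setd2 itself had 229 and 192 normalized counts in Ctrl and 211 and 237 in KO. A promoter peak can stay when exons downstream are deleted, so it does not check the genotypes.

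Most annotated lincRNAs had no Pol II peak centred within 1 kb of their start. Of 5854 lincRNA genes in the annotation, 4681 lie on the autosomes and start more than 3 kb from a protein-coding start. Among these, 320 (6.84%) had a member peak and 4357 had no peak midpoint within 1 kb. Lacking such a midpoint does not show that a gene is silent. Its peak may not have been called at this depth and threshold, or a wide peak centred further off may cover its start. Members were found on all 19 autosomes, 200 of the 338 contained the annotated start, and the median distance between midpoint and start was 315 bp. The midpoint lay downstream of the start in 185, upstream in 151 and on it in 2. At the edge of the rule, A430110L20Rik at 990 bp had 79.1 and 78.5 normalized counts in Ctrl and 87.3 and 78.3 in KO, and Gm48056 at 991 bp had 26.6 and 35.8 in Ctrl against 33.9 and 54.5 in KO. Just outside, a peak 1001 bp from Gm11210 had 109 and 182 in Ctrl against 105 and 133 in KO, and one 1004 bp from Gm26695 had 64.7 and 90.9 in Ctrl against 57.0 and 51.1 in KO.

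Several members could not be credited to the lincRNA alone. CUT&Tag fragments carry no strand, so Pol II of a lincRNA and of a transcript on the other strand of the same DNA cannot be told apart. The midpoint of 28 members lay inside the body of a protein-coding gene, where Pol II of the host gene counts too. A further limit is that 30 members had the start of another non-coding gene or a pseudogene within 1 kb. In 4 members the start of a non-coding transcript of a protein-coding gene lay within 1 kb. Near-identical copies elsewhere in the genome (at least 95% identity over at least 50% of the peak) were found for 7 members, among them Gm26809 with 20 copies, and reads there depend on how unique mapping treated them.

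lincRNA promoter peaks stood between protein-coding promoters and other distal peaks in width and in level. Their median width was 684 bp, against 861 bp for 11163 promoter peaks of protein-coding genes and 511 bp for 36396 other peaks more than 3 kb from a protein-coding start. The median of the mean normalized count was 90.1 for lincRNA promoter peaks (interquartile range 48.9 to 170), 144 for protein-coding promoters and 55.0 for the other distal peaks. Per kb of peak length the order was the same, with medians of 123, 162 and 105. The order held in each library: per kb, the lincRNA median was 130 for both Ctrl libraries and 128 and 125 for KO 1 and KO 2, while the coding medians lay between 156 and 172 and those of other distal peaks between 105 and 113. The spread within the classes was wide, and the members ranged from 49.2 to 752 per kb. These are descriptions over peaks of the same 4 libraries, and no test was made.

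**Figure D1:**
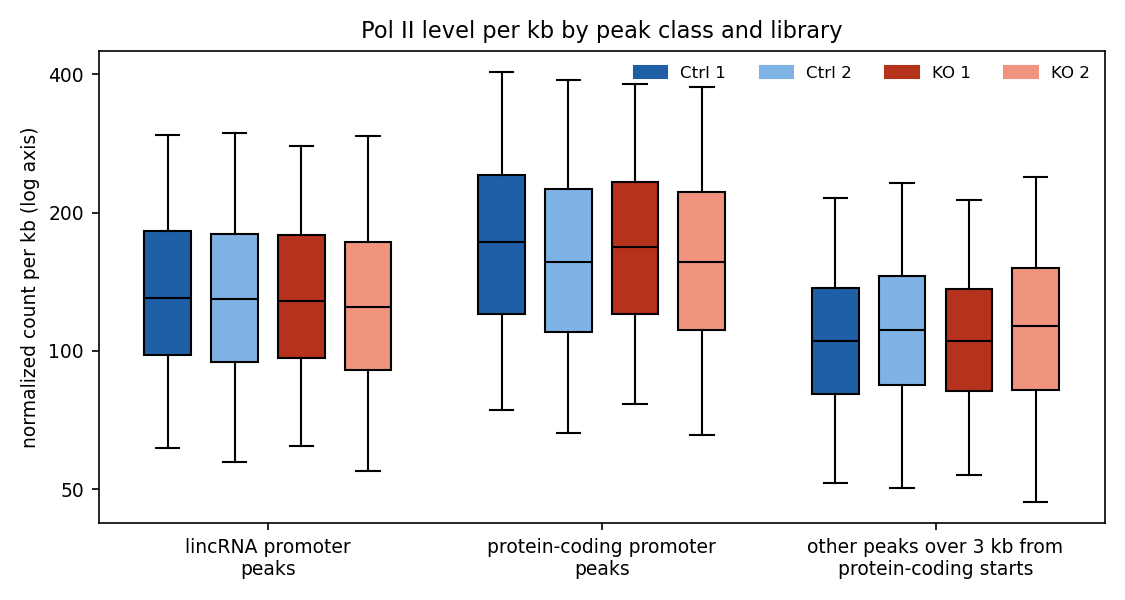
Normalized Pol II count per kb of peak length (log axis) for lincRNA promoter peaks, promoter peaks of protein-coding genes and other peaks more than 3 kb from a protein-coding start, in each of the 4 libraries. Lines in the boxes are medians, boxes span the quartiles and whiskers the 5th to 95th percentile of peaks, and the lincRNA medians (125 to 130) lie between those of the other classes in every library.

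Most lincRNA starts with a member peak lacked the CpG content of coding promoters. More of them had it than lincRNA starts with no peak midpoint within 1 kb. In the 300-base windows, 63 of 319 lincRNA starts with a member peak (19.7%) had a CpG ratio over 0.6 together with a GC content over 50%. The same was true of 65.4% of 10657 protein-coding starts with a promoter peak. At lincRNA starts with no peak midpoint within 1 kb it was true of 2.57% of 4354. The median CpG ratio was 0.325, 0.758 and 0.206 in these classes, and the median GC content was 52.0%, 61.0% and 47.0%. Among the windows printed above, 6720427I07Rik, Gm6410 and Gm36445 belong to the CpG-rich group and Gm26551 and Gm26778 do not. Windows lie at annotated starts, which 200 of the 338 member peaks contained, so a window can lie outside its peak. This holds for the motif shares below as well.

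**Figure D2:**
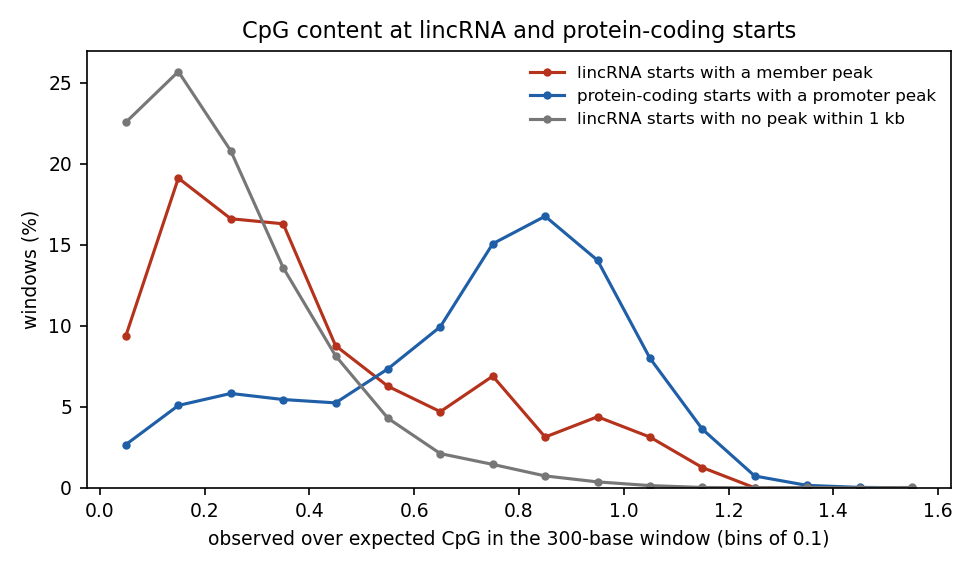
Share of windows (percent, vertical axis) by observed over expected CpG ratio (horizontal axis, bins of 0.1). Classes are 319 lincRNA starts with a member peak (red) and 10657 protein-coding starts with a promoter peak (blue). Grey is 4354 lincRNA starts with no peak midpoint within 1 kb. The medians are 0.325, 0.758 and 0.206, and the red line has a tail above 0.6 that the grey line nearly lacks.

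Motif content followed the same order for the motifs that contain a CpG. Each motif was searched as exact letters on both strands, with N standing for any base, none of the motifs contains another, and a window was counted once per motif. The GC box GGGCGG, bound by Sp and Klf factors, occurred in 25.1% of windows at lincRNA starts with a member peak. It occurred in 61.4% at protein-coding starts with a peak and in 7.03% at lincRNA starts with no peak midpoint within 1 kb. The Ets motif CCGGAAG occurred in 9.40%, 17.3% and 2.96%, and TGACGTCA in 2.19%, 3.08% and 0.643%. The TATA box TATAAA ran the other way, with 12.2%, 6.01% and 17.6%. The Runx motif TGTGGT occurred in 22.3% of member windows and 21.8% of lincRNA windows with no peak midpoint within 1 kb. The STAT motif TTCNNNGAA occurred in 10.7% and 10.1%, and the AP-1 motif TGANTCA in 8.15% and 11.2%. At protein-coding starts these 3 were rarer, with 12.9%, 6.46% and 4.76%. A match says that the letters are present and not that a factor was bound there.

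CpG-rich members had higher Pol II levels, given here as a description with no test. The 65 members at CpG-rich starts had a median of 201 mean normalized counts and a median width of 1039 bp, against 78.7 and 630 bp for the other 273. Per kb the medians were 164 and 117, with interquartile ranges of 115 to 221 and 94.3 to 164 that overlapped. In each library the CpG-rich median was higher, between 152 and 175 per kb, against 118 to 125. The median log2 fold change from Ctrl to KO was -0.04 in both groups. The part of base composition in how well such DNA is cut, amplified or mapped was not tested.

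The 10 highest members made up 17.2% of all normalized counts in lincRNA promoter peaks, and the 10 highest per kb were a mixed group. Gm6410 had 1806 and 1806 normalized counts in Ctrl and 1523 and 1662 in KO, which is 752 per kb on average over the libraries. Its peak (chr8:4677255-4679515) covered the start and lay within 1 kb of the start of another, unclassified gene, and both KO libraries were below both Ctrl libraries, but the log2 fold change of -0.18 ± 0.17 (SE, n = 2 libraries per group) did not pass the test (DESeq2, unadjusted p = 0.294). 4930580E04Rik followed with 758 and 711 in Ctrl against 721 and 773 in KO. Its peak midpoint lay 47237 bp from the start of the chromatin factor gene Kmt2e. Distances to coding genes given below are also measured from peak midpoints. Gm2885, 45096 bp from Ezr, which encodes the membrane linker ezrin, had 731 and 562 in Ctrl against 566 and 521 in KO. 4932412D23Rik, whose nearest coding gene is the zinc finger factor gene Zbtb20, had 820 and 794 in Ctrl against 755 and 833 in KO. In the last 3 the ranges of the groups overlapped.

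The other 6 of the 10 were Dubr, a lincRNA described in muscle differentiation, 1700096K18Rik, D730003I15Rik, Gm34590, Gm31793 and Gm20939. The peak midpoint of D730003I15Rik lay 6489 bp from the start of the stress response factor gene Atf3. D730003I15Rik had 802 and 674 in Ctrl against 629 and 712 in KO. Dubr differed little between any of the libraries, with 258 and 240 in Ctrl against 246 and 252 in KO. Over the 10, log2 fold changes ran from -0.45 to 0.19, none at an unadjusted p under 0.05, and 7 of the 10 had a CpG-rich start. Gm20939 and Gm31793 reached this group with peaks of only 288 and 486 bp.

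Peaks at microRNA host lincRNAs were present at moderate to high levels and, apart from Gm2044 described further on, had no unadjusted p under 0.05 (DESeq2). Mir155hg, whose product miR-155 supports Treg cell fitness, had 147 and 96.4 normalized counts in Ctrl and 134 and 80.0 in KO. Its peak covered the start, and the KO values lay among the Ctrl values or below them, with a log2 fold change of -0.17 ± 0.37 (SE). The deeper library of each group was the higher one, and the spread within a group was larger than the difference between groups. 6720427I07Rik had 546 and 431 in Ctrl against 545 and 424 in KO, with a log2 fold change of -0.01 ± 0.23 (SE). The same split between deeper and shallower libraries was seen there. E130102H24Rik had 185 and 197 in Ctrl against 208 and 232 in KO, with a log2 fold change of 0.20 ± 0.26 (SE). 2900076A07Rik had 144 and 194 in Ctrl against 116 and 121 in KO, with a log2 fold change of -0.50 ± 0.31 (SE). The groups of these last lincRNAs did not overlap, in opposite directions, and neither passed DESeq2's test, with unadjusted p = 0.457 and 0.105. Gm37233 had 171 and 109 in Ctrl against 135 and 118 in KO, where the groups overlapped. Hosts other than Mir155hg, Snhg20 and Gm2044 were named for the hairpins inside them, after their values were seen.

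Few lincRNAs known by name met the rule. A lincRNA can miss the rule and still carry Pol II, in a peak of 5000 bp or more or near a coding start. Of 13 listed microRNA hosts, 8 are of type lincRNA and 2 had a member peak, Mir155hg and Mirt1. Mirt1 stands on that list by its symbol only, since no annotated hairpin lies in it. Of 20 listed snoRNA hosts, 6 are of that type and 4 had a member peak, Snhg12, Snhg20, Snhg6 and Epb41l4aos. Of 33 lincRNAs with a described nuclear, imprinted or immune role, 17 are of that type and 2 had a member peak. No member of the 3 lists had an unadjusted p under 0.05 (DESeq2), with medians of -0.12, -0.14 and -0.04 against -0.01 over all peaks.

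Lncpint, a p53-induced lincRNA, was the highest of these, with 589 and 580 normalized counts in Ctrl and 572 and 518 in KO. Its KO libraries were both slightly below the Ctrl libraries, with a log2 fold change of -0.10 ± 0.20 (SE). The peak midpoint of Trp53cor1, also called lincRNA-p21, lay 11789 bp from the start of the p53 target Cdkn1a. Trp53cor1 was the lowest, with 35.2 and 38.6 in Ctrl against 48.1 and 23.8 in KO. Its KO libraries fell on both sides of the Ctrl libraries. Snhg6 had 164 and 149 in Ctrl against 186 and 88.6 in KO, and Snhg12 had 180 and 120 in Ctrl against 152 and 111 in KO. Snhg20, which also holds a Cajal body RNA, had the narrowest spread of the snoRNA hosts, with 127 and 120 in Ctrl against 132 and 138 in KO. Epb41l4aos had 254 and 211 in Ctrl against 212 and 220 in KO. In the snoRNA hosts other than Snhg20 the groups overlapped.

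**Figure D3:**
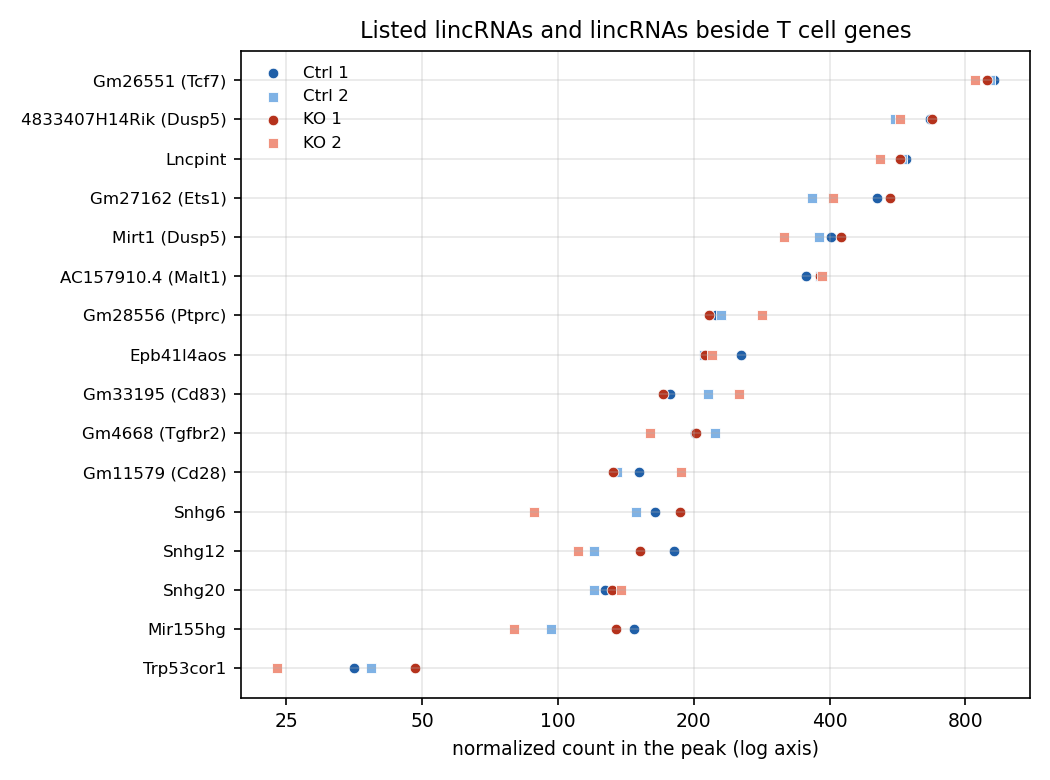
Normalized Pol II counts (log axis) in each library for the lincRNAs of the 3 lists and for 9 of the highest members whose nearest protein-coding gene, in parentheses, is on a list of T cell genes. Circles are replicate 1, squares replicate 2, blue Ctrl and red KO, and in most rows the colours are interleaved, as for Mir155hg with 147 and 96.4 in Ctrl against 134 and 80.0 in KO.

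Some of the highest lincRNA peaks had a T cell gene as their nearest protein-coding gene, at any distance. The share of members with such a neighbour was close to that of other distal peaks. The nearest protein-coding gene was on a list of 143 T cell genes for 21 members (6.21%), against 5.69% of the other distal peaks. Their median level per kb was 124, against 123 for the remaining members. Of the 21, 9 were higher and 12 lower in KO, none at an unadjusted p under 0.05 (DESeq2), and the median log2 fold change was -0.05.

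Gm26551, inside Tcf7, which encodes the T cell factor TCF-1, had 925 and 905 in Ctrl against 894 and 838 in KO. Both KO libraries were below both Ctrl libraries by little, with a log2 fold change of -0.08 ± 0.19 (SE). The peak (chr11:52267567-52270911) spans 3345 bp of a coding gene on the same strand, so Pol II of Tcf7 cannot be told apart from that of the lincRNA. A pair of lincRNAs, 4833407H14Rik and Mirt1, have neighbouring peaks and share the ERK phosphatase gene Dusp5 as their nearest coding gene, at 67714 and 64396 bp. 4833407H14Rik had 666 and 559 in Ctrl against 676 and 574 in KO, and Mirt1 had 403 and 379 in Ctrl against 424 and 317 in KO. Neither pair of groups was separated.

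Further high members are named here with their nearest protein-coding gene, whatever its distance. They were Gm27162 with the factor gene Ets1, AC157910.4 with Malt1, which encodes a protease of antigen receptor signalling, and Gm28556 with Ptprc (CD45). The others were Gm33195 with Cd83, Gm4668 with Tgfbr2, which encodes a TGF-β receptor subunit, and Gm11579 with the costimulatory receptor gene Cd28. Over all these further members, log2 fold changes ran from -0.21 for Gm4668 to 0.14 for Gm11579. AC157910.4 was the steadiest, with 355 and 380 in Ctrl against 381 and 385 in KO, while Gm27162 was higher in replicate 1 of each group, with 510 and 366 in Ctrl against 544 and 407 in KO. The 11 with lower counts included peaks with Tnfaip3, Klf6, Dusp1, Zap70, Fos, Jun or Ikzf2 as the nearest coding gene.

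Between Ctrl and KO, lincRNA promoter peaks were called about as often as all peaks. At an unadjusted p under 0.05 (DESeq2), 6 of 338 members (1.78%) were called, against 1.53% of all 56615 peaks. Of the 6, 2 were higher in KO (0.592% of members, against 0.862% of all peaks) and 4 lower (1.18%, against 0.664%). After adjustment over all peaks no member was called by DESeq2, with a lowest adjusted p of 1.00, and neither was any other peak (0.0%). edgeR's quasi-likelihood test gave 11 members at an unadjusted p under 0.05 (3.25%, against 3.63% of all peaks), 4 higher and 7 lower, which included all 6. After adjustment edgeR called no member (lowest adjusted p = 0.460), against 0.0477% of all peaks. Both KO libraries lay on one side of both Ctrl libraries in 117 members (34.6%, against 32.3% of all peaks), 52 higher and 65 lower. The 6 calls depended on single libraries: without Ctrl 1 there were 0, without Ctrl 2 there were 2, without KO 1 there were 8 and without KO 2 there were 0. In the same fits 0.636%, 0.518%, 1.29% and 0.299% of all peaks were called.

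The members' median log2 fold change was -0.04, against -0.01 for all peaks, -0.03 for protein-coding promoters and 0.00 for other distal peaks. Of the 338, 147 (43.5%) were higher in KO and 191 lower, against 48.9% higher of all peaks. Among protein-coding promoter peaks 4973 of 11163 were higher, and among other distal peaks 18213 of 36396. Without Ctrl 1 the median was 0.012 for members and 0.025 for all peaks. Without KO 2 the members were above all peaks, at -0.0072 against -0.014. The share of all counts that fell in lincRNA promoter peaks was 0.647% in Ctrl 1 (95% Wilson interval 0.642 to 0.652), 0.638% in Ctrl 2 (0.631 to 0.644), 0.641% in KO 1 (0.637 to 0.646) and 0.632% in KO 2 (0.625 to 0.640). These intervals cover counting error within a library and not the spread between libraries. They are too narrow where the counted fragments are not independent molecules. The group means were 0.642% ± 0.0065 (SD, n = 2) in Ctrl and 0.637% ± 0.0064 in KO, and the groups overlapped (two-sided exact permutation test, p = 0.667, where the smallest p that 2 against 2 allows is 0.333).

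How small a change could be seen depended on the counts. The SE of the log2 fold change had a median of 0.37 over the members, ran from 0.17 to 1.21, was under 0.3 in 93 and over 0.5 in 77. The 39 members with at least 300 mean normalized counts had a median SE of 0.22, and their log2 fold changes lay between -0.59 and 0.26, with a median size of 0.10. A log2 fold change over 1 in size was seen in 5 members, all with at most 36.7 mean normalized counts. Members of low count thus spread widely around 0 in the plot of fold change against level, as all peaks did.

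**Figure D4:**
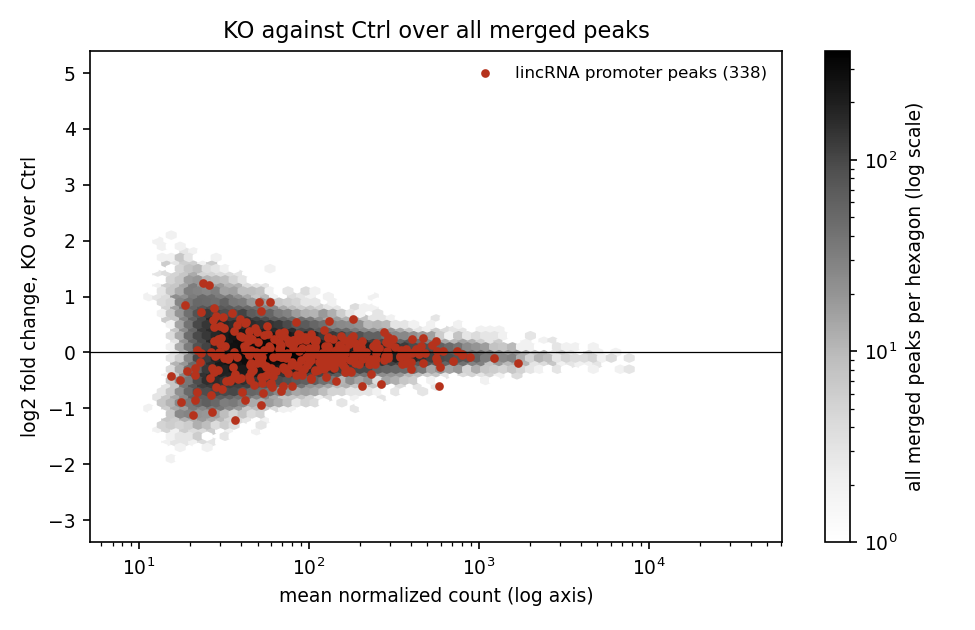
Log2 fold change from Ctrl to KO (vertical axis) against mean normalized count (log axis) for all 56615 merged peaks (grey hexagons, darker with more peaks, log scale) and the 338 lincRNA promoter peaks (red). The red points lie within the grey cloud and narrow around 0 with rising counts, and none passed an adjusted test.

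Gm36445, on chromosome 13, had the lowest p-value of the members. Its peak (chr13:65240009-65242405) had 721 and 686 normalized counts in Ctrl and 502 and 427 in KO. Both KO libraries were well below both Ctrl libraries, with a log2 fold change of -0.59 ± 0.21 (SE; unadjusted p = 0.00422 with DESeq2 and 0.000837 with edgeR). It was no longer at an unadjusted p under 0.05 (DESeq2) without Ctrl 1 or without KO 2. The peak covers the CpG-rich window printed above and is centred 546 bp upstream of the annotated start, and no start of another gene type was annotated within 1 kb. What this lincRNA does is not known from the sources used here.

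Gm2044, the host of miR-202 and miR-7686, was also lower at an unadjusted p under 0.05. It had 377 and 259 in Ctrl against 251 and 174 in KO, with a log2 fold change of -0.57 ± 0.29 (SE; DESeq2 unadjusted p = 0.0457). The groups touched closely, since Ctrl 2 and KO 1 differed by less than the libraries within either group. Gm17275, within the body of the histone H3.3 gene H3f3a on the other strand, had 285 and 216 in Ctrl against 198 and 129 in KO. Its log2 fold change was -0.60 ± 0.30 (SE; DESeq2 unadjusted p = 0.0466), beside -0.27 ± 0.28 (SE) at the H3f3a promoter. Gm26809 had 74.0 and 66.1 in Ctrl against 46.3 and 23.8 in KO, with a log2 fold change of -0.94 ± 0.48 (SE; DESeq2 unadjusted p = 0.0487). Its unadjusted p was 0.0506 with the replicate number as a block, 0.0502 with TMM factors and 0.0540 with total-count factors, and its 20 near-identical copies make its counts uncertain. The next lower member, Gm43121, had 79.1 and 92.3 in Ctrl against 54.1 and 51.1 in KO. Its unadjusted p was 0.0831 with DESeq2 and 0.0387 with edgeR.

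In KO, 2 lincRNA peaks were higher at an unadjusted p under 0.05. Gm16085, on chromosome 12 and 358624 bp from the nearest protein-coding start, had 164 and 128 in Ctrl against 238 and 203 in KO. The groups did not overlap, and the log2 fold change was 0.59 ± 0.29 (SE) with an unadjusted p = 0.0391 (DESeq2). Gm26778 had 38.8 and 44.1 in Ctrl against 79.0 and 74.9 in KO, with a log2 fold change of 0.90 ± 0.43 (SE; DESeq2 unadjusted p = 0.0344, or 0.0582 with the replicate number as a block). Gm26778 lies in the body of Kctd12, which encodes an auxiliary subunit of GABA-B receptors, on the other strand. The Kctd12 promoter peak, 498 and 365 in Ctrl against 777 and 536 in KO, was higher as well, by 0.61 ± 0.25 (SE) on the log2 scale (DESeq2, unadjusted p = 0.0147), and Pol II of the 2 genes cannot be told apart in the lincRNA peak. The next members higher in KO, 1700047G03Rik, 1810012K08Rik and Gm48428, had log2 fold changes of 1.24, 0.90 and 1.21 at 24.0, 50.6 and 25.9 mean normalized counts and did not pass an unadjusted p of 0.05 in DESeq2. For 1810012K08Rik the unadjusted p was 0.0237 with edgeR and 0.0483 with total-count size factors in DESeq2. 1810012K08Rik has a further member peak 462 bp away, with a log2 fold change of 0.00.

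Across the 19 lincRNAs with 2 member peaks, the log2 fold changes of both peaks had the same sign in 12, positive in 5 and negative in 7. Peaks of one lincRNA lie close together and share libraries, so they are not independent.

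The nearest protein-coding start was a median of 29610 bp from a member (interquartile range 11458 to 69000 bp), within 10 kb for 73 members and more than 100 kb away for 55. It was on the opposite strand for 165. For 221 members (65.4%) the nearest gene had a promoter peak of its own, and in 68 of these the lincRNA peak had the higher level per kb, with a median ratio of lincRNA to neighbour of 0.749. Across these 221 pairs, the log2 fold changes of lincRNA and neighbour had a Pearson r of 0.22 and a Spearman rho of 0.21, and 131 had the same sign. The levels per kb were less related, with r of 0.11 and rho of 0.04. These are descriptions over peaks that share libraries, depth and size factors, and some neighbours are counted more than once.

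Of the 196 neighbour promoter peaks, 2 had an unadjusted p under 0.05 (DESeq2), those of Kctd12, described above, and of Mettl4, which encodes an adenine methyltransferase. This stands against 158 of 11163 protein-coding promoter peaks and 1.53% of all peaks. The Mettl4 promoter had 318 and 344 in Ctrl against 241 and 221 in KO, and its log2 fold change was -0.51 ± 0.24 (SE; DESeq2 unadjusted p = 0.0334). Gm20939, 114767 bp from its start, had 105 and 134 in Ctrl against 78.4 and 97.1 in KO. Gm26734, 84611 bp from it and chosen after its values were seen, had 61.8 and 73.0 in Ctrl against 37.4 and 44.3 in KO. In both lincRNAs the KO libraries were below the Ctrl libraries, with log2 fold changes of -0.45 ± 0.35 and -0.73 ± 0.45 (SE), and neither had an unadjusted p under 0.05.

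**Figure D5:**
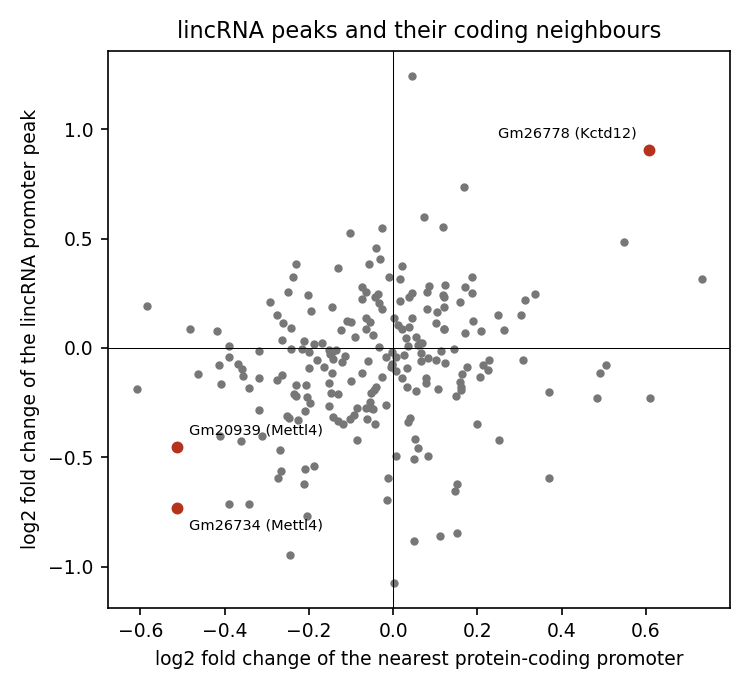
Log2 fold change from Ctrl to KO of each of 221 lincRNA promoter peaks (vertical axis) against that of the promoter peak of its nearest protein-coding gene (horizontal axis), with 3 lincRNAs named in red and the neighbour in parentheses. The points scatter broadly around 0 with a Pearson r of 0.22, and Gm26778 with Kctd12 is at the upper right.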

How the data were processed

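Counts of reads per merged peak were deposited by the authors as raw, unnormalized counts. According to the study's methods, 150 bp paired-end reads were mapped to mm10 with Bowtie2, only uniquely mapped reads without duplicates were kept, peaks were called with MACS2 against IgG at a threshold of 0.01, and peaks of all libraries were merged and counted with bedtools, so peak borders do not differ between libraries. Tool versions were not given in the sources used here. Merging favours regions open in any library, and Tn5 cutting and amplification depend on base composition.

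Members were found with GENCODE vM21. Counts were fitted over all 56615 peaks with DESeq2 1.42.0 (R 4.3.3, median-of-ratios size factors, genotype only, two-sided Wald test, Benjamini-Hochberg adjustment), and with edgeR 4.0.16 as an alternative. Library totals of 4489646 to 13351007 counts set the precision. Named members were those on the 3 lincRNA lists, the 10 highest per kb and the 5 with the lowest p in each direction. Named too were the 10 highest with a listed T cell gene nearest, and any with an adjusted p under 0.05. Of these, 1 is not reported here. The members and lists were chosen with earlier results of these data known. The CpG limits were set during the analysis. Copies were found with minimap2 2.31-r1302. Other size factors, a filter at a mean of 10 counts, the replicate block, each library left out, and other distance rules were also tried. Leaving out members inside coding bodies or near other gene types was added after seeing the data. The main DESeq2 fit was tested on simulated counts, and the alternative fits were not. Columns of per-sample values with no matching sample numbered 0.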

Additional observations from a re-analysis of the deposited data

How the results depend on the processing

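No member had an adjusted p under 0.05 under any of the alternatives run. Of the 338 members, 212 had no adjusted p under the replicate block. The count at an unadjusted p under 0.05 was 6, and 11 with edgeR, 3 of 229 when the midpoint had to lie within 500 bp of the start, and 0 to 8 with each library left out. It was 5 of 338 under the replicate block (1 higher, 4 lower), 4 of 310 without members inside coding bodies and 5 of 304 without those near other gene types. In each of these the share of members called was close to the share of all peaks called in the same fit. The labels do not say that a replicate number pairs libraries, and with 2 pairs the correlation of the deviations of same-numbered libraries was 0.234 over 56611 peaks and 0.312 over the members. The replicate block turned the direction of 1 named member, Trp53cor1 (-0.068), and changed no adjusted call. The median log2 fold change ran from -0.061 to 0.012 with each library left out, and the difference in the share of counts from -0.0102 to -0.00092 percentage points. Total-count size factors moved the median of all peaks from -0.01 to 0.02. Near 0, other scalings turned the direction of 4932412D23Rik (0.0032 with total counts) and of Dubr (0.00081 with edgeR, 0.0012 with TMM factors, 0.026 with total counts). Leaving out 1 library turned the direction of 16 named members, whose log2 fold changes then ran from -0.45 to 0.15 for Snhg12, -0.63 to 0.39 for Trp53cor1, -0.24 to 0.038 for Epb41l4aos, -0.62 to 0.18 for Mir155hg, -0.31 to 0.12 for Mirt1, -0.82 to 0.25 for Snhg6, -0.023 to 0.077 for 4930580E04Rik, -0.089 to 0.044 for 4932412D23Rik, -0.052 to 0.061 for Dubr, -0.061 to 0.20 for 1700096K18Rik, -0.39 to 0.15 for Gm31793, -0.10 to 0.17 for 4833407H14Rik, -0.11 to 0.39 for Gm27162, -0.065 to 0.32 for Gm28556, -0.19 to 0.36 for Gm33195 and -0.11 to 0.39 for Gm11579. The cause of these changes was not tested. Over the 37 named members and their alternatives, 277 values kept direction and call, 31 turned, 22 lost an unadjusted p under 0.05 and 3 gained one. All 6 members called lost that call without at least 1 library. A fit with a group of 1 library assumes that it varies like the other group. With 2 libraries per group and a median SE of 0.37, changes of that size could not be told from 0 in most members.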
